A study of Mus musculus with 2 samples.

Results

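Foxf1, Foxf2, Foxd1 and Foxd2 encode forkhead transcription factors of the FoxF and FoxD subfamilies, and their level was followed through the cell clusters of the embryonic mouse lower jaw. The 4 genes were taken by symbol, and all 4 were among the 15944 genes listed at both stages and among the 34 forkhead symbols listed at either stage. Cells with at least 1 UMI (unique molecular identifier, 1 counted transcript) of any of the 4 genes numbered 1948 of 6318 at embryonic day 13.5 (E13.5) and 1485 of 7099 at embryonic day 11.5 (E11.5). The cells came from mandibular prominences, tongue bud included, dissected from wild-type CD1 embryos, with no mutation or drug at either stage. The E13.5 tissue was dissociated with 5 mg/ml and the E11.5 tissue with 3 mg/ml of a cold-active bacterial protease. Each stage was profiled as 1 droplet (10x) library, and the number of embryos pooled is not given in the sources used here.

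Forkhead factors bind DNA through a winged-helix domain. In the embryonic face, FoxF and FoxD genes are known as genes of neural crest-derived mesenchyme near hedgehog-secreting epithelium, and several of them respond to hedgehog signalling. In the mouse, Foxf1 is needed in the mesenchyme of lung and gut, Foxf2 for closure of the palate, and Foxd1 in the stroma of the kidney. Foxd2 is a close relative of Foxd1 that is also made in facial and kidney mesenchyme.

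The genes lie at 4 separate loci on 3 chromosomes (GRCm38, GENCODE annotation), and each is short with 1 or 2 exons. Foxf1 is at chr8:121084386-121088144 on the plus strand and Foxf2 at chr13:31625816-31631403 on the plus strand. Foxd1, a gene of 1 exon, is at chr13:98354242-98359305 on the plus strand, and Foxd2, also of 1 exon, at chr4:114906282-114908873 on the minus strand. The 250 bases upstream of the start are shown for Foxf2, Foxd1 and Foxd2. These genes were not chosen by level, as the RefSeq set used here held no entry for Foxf1. They are RefSeq sequences of GRCm38.p6, on the strand of the gene, from chr13:31625566-31625815, chr13:98353995-98354244 and chr4:114908899-114909148 in that order. Capitals mark, on either strand, the core CCACCC of the site bound by the hedgehog factors Gli, the letters CCAAT and the letters TATAA.
Foxf2: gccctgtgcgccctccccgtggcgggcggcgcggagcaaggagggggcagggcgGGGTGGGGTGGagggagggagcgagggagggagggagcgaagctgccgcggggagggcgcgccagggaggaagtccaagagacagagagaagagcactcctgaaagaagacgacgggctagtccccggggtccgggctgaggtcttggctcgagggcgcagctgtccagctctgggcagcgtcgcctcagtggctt
Foxd1: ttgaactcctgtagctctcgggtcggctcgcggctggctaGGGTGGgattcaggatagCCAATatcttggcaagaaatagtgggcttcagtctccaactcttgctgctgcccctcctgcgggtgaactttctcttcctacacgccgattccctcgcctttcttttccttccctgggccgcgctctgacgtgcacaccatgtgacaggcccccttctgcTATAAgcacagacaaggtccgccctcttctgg
Foxd2: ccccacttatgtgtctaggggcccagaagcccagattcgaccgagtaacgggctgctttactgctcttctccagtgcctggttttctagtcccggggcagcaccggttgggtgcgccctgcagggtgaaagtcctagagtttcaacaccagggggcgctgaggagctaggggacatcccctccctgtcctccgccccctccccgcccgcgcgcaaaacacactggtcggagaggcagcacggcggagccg
The Foxf2 window held 2 Gli cores, which overlap each other on the opposite strand, and the Foxd1 window held 1 Gli core, 1 CCAAT and 1 TATAA, the last at position -32 from the start. The Foxd2 window held none of these letters, and none of the 3 windows held the forkhead letters GTAAACA. A Gli core was present in 28.1% of 32817 upstream windows of the same length, CCAAT in 33.8%, TATAA in 22.8% and GTAAACA in 3.16%. All 3 windows were richer in G and C than the mean of 53.2%, with 71.6% in Foxf2, 57.2% in Foxd1 and 64.4% in Foxd2. They held 21, 12 and 16 CpG pairs, against a median of 6.

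The E13.5 library held 67838169 UMIs with a median of 9280 per cell, and the E11.5 library 49913485 with a median of 6231. The deposited cells reached down to 500 UMIs at E13.5 and to 2253 at E11.5, and up to a mitochondrial share of 19.98% and 7.90%. The same barcode occurred in both libraries 71 times. With 1 library per stage no test was possible and no p-value is given. Stage cannot be told apart from library, protease dose or cell filter, and the 95% intervals cover counting error only. Clusters were made by the authors in each library alone, from all genes, so a level in 1 cluster against the rest is a description. Mesenchyme covered 11 of 22 clusters and 3905 cells at E13.5, and 11 of 18 clusters and 5899 cells at E11.5. Mesenchyme markers summed to between 1189 and 7426 UMIs per 1000000 UMIs of the same cells (CPM) in the E13.5 clusters of this class and to between 1108 and 3020 CPM in those of E11.5, against 57.2 and 271 CPM in erythroid cells.

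In the mesenchyme, Foxf2, Foxd1 and Foxd2 were several-fold higher at E13.5, while Foxf1 was at nearly the same level at both stages. Foxf1 had 1853 UMIs or 54.0 CPM (51.6 to 56.5) at E13.5, against 2159 UMIs or 57.9 CPM (55.5 to 60.4) at E11.5. Foxf2 had 1736 UMIs or 50.6 CPM (48.3 to 53.1) at E13.5, against 635 UMIs or 17.02 CPM (15.7 to 18.4) at E11.5. The intervals of Foxf2 do not overlap between the stages, and those of Foxf1 do. Foxd1 had 1202 UMIs or 35.0 CPM (33.1 to 37.1) at E13.5, against 224 UMIs or 6.01 CPM (5.24 to 6.85) at E11.5. Foxd2, with the fewest UMIs, had 267 UMIs or 7.79 CPM (6.88 to 8.78) at E13.5, against 98 UMIs or 2.63 CPM (2.13 to 3.20) at E11.5.

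Set over the E11.5 level, the E13.5 level gave a ratio of 0.933 (0.877 to 0.994) for Foxf1, 2.97 (2.71 to 3.26) for Foxf2, 5.84 (5.06 to 6.76) for Foxd1 and 2.96 (2.34 to 3.77) for Foxd2. By a rule of size, not a test (at least 1.5-fold with an interval that excludes 1), 3 of the 4 genes were higher at E13.5 and none was lower. The same rule called 27.0% of 14139 measured genes higher and 12.2% lower, or 3821 and 1723 genes. The median gene had a log2 ratio of 0.14 in CPM, and scaling that shift away gave 3237 higher and 2421 lower genes. With that scaling the log2 ratio was 1.43 for Foxf2, 2.40 for Foxd1, 1.43 for Foxd2 and -0.24 for Foxf1.

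With 1 cluster of 1 stage left out at a time, all 4 ratios were highest without E11.5 cluster 0. That cluster held 44.7% of the E11.5 mesenchyme Foxf1 UMIs and 73.5% of its Foxd2 UMIs, so leaving it out must raise the ratios. Without it the ratio was 1.43 for Foxf1, 4.99 for Foxf2, 14.2 for Foxd1 and 9.48 for Foxd2. At the other end, without E13.5 cluster 11 the ratio was 0.757 for Foxf1 and 2.24 for Foxf2. Without E13.5 cluster 4 it was 4.27 for Foxd1, and without E13.5 cluster 6 it was 2.28 for Foxd2. In cells that the authors called G1, the ratio of Foxd2 was 1.82. The mesenchyme included clusters whose 10 leading genes held more markers of another tissue (bone, cartilage or neuron) than of mesenchyme. These were E13.5 clusters 2, 5 and 10 and E11.5 clusters 5, 8 and 10. In E13.5 clusters 2 and 10 and E11.5 clusters 5 and 8 this rested on 1 gene, Stmn2, Stmn2, Sox9 and Tubb3, against 0. In each of the 6, mesenchyme markers summed higher than those of that other tissue, as in E13.5 cluster 2 with 2394 against 688 CPM. Most of the clusters that were kept also held 0 mesenchyme markers among their 10 leading genes. Without those 6 clusters, left out after the data were seen, the ratio was 1.10 for Foxf1, 3.72 for Foxf2, 7.0 for Foxd1 and 3.71 for Foxd2.

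**Figure D1:**
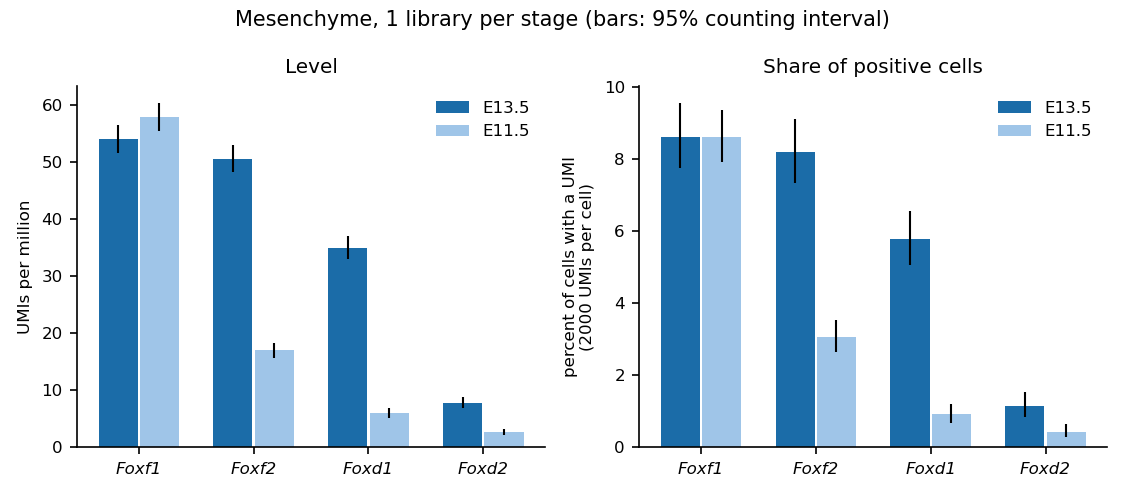
Level (left, CPM) and share of cells with a UMI (right, percent, each cell thinned to 2000 UMIs) of the 4 genes in the mesenchyme, with E13.5 in dark and E11.5 in light bars and 95% counting intervals. The Foxf1 bars are level at both stages, at 54.0 and 57.9 CPM, while the Foxd1 bars stand at 35.0 and 6.01 CPM.

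Shares of positive cells followed the levels once depth was made equal. With every mesenchyme cell thinned to 2000 UMIs, which left out 79 shallow E13.5 cells and no E11.5 cell, Foxf1 was found in 8.63% of cells at E13.5 (7.75 to 9.56%) and in 8.63% at E11.5 (7.92 to 9.37%). Foxf2 was found in 8.21% at E13.5 (7.36 to 9.12%) and in 3.07% at E11.5 (2.64 to 3.54%). For Foxd1 the shares were 5.78% at E13.5 (5.06 to 6.56%) and 0.915% at E11.5 (0.688 to 1.19%). For Foxd2 they were 1.15% at E13.5 (0.837 to 1.54%) and 0.441% at E11.5 (0.288 to 0.645%). Unthinned, at medians of 8303 UMIs per mesenchyme cell at E13.5 and 5895 at E11.5, the shares were 25.7% and 18.1% for Foxf1, 23.0% and 8.39% for Foxf2, 18.9% and 3.14% for Foxd1, and 6.12% and 1.59% for Foxd2. Erythroid cells, a type not known to make these factors, had medians of 18517 UMIs at E13.5 and 13137 at E11.5. There the unthinned Foxf1 share was 0.966% and 6.80%, the Foxf2 share 0.483% and 2.19%, and the Foxd1 share 1.93% and 0.219%. Foxd2 was found in 0 of 207 erythroid cells at E13.5, which allows a share of up to 1.45% by the limit of 3 counts used here for a count of 0, and in 1.10% at E11.5. These erythroid shares come from deeper cells. At 2000 UMIs per cell, Foxd2 was found at E11.5 in 0.441% of mesenchyme cells (0.288 to 0.645%) and in 0.219% of erythroid cells (0.00555 to 1.22%), which overlap. In CPM the E11.5 values were 2.63 (2.13 to 3.20) in mesenchyme and 0.981 (0.360 to 2.14) in erythroid cells.

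Within the E13.5 mesenchyme, Foxf1 was highest in cluster 11, which was led by Meox2, Foxq1, Sp5 and Rspo1. Foxf2 and Foxf1 were themselves among its 10 leading genes, at ranks 6 and 7. Cluster 11 held 192 CPM of Foxf1 (175 to 211), from 453 UMIs in 279 cells, and 29.9% of its cells were positive at 2000 UMIs. Cluster 6, led by Aldh1a3, Thbs4 and Hand1, held 118 CPM (106 to 130) and cluster 4, led in part by the proliferation genes Top2a and Tk1, held 113 CPM (104 to 123). Their intervals overlap, so clusters 6 and 4 were not separable. Foxd1, Foxf1 and Foxf2 were among the 10 leading genes of cluster 4, at ranks 1, 4 and 10. Clusters 4 and 6 also shared the leading genes Thbs4 and Angptl1. Cluster 21, with a median of 1833 UMIs and only 9 UMIs of Foxf1, had 67.1 CPM (30.7 to 127), which overlaps both its neighbours. Cluster 5, led by the bone genes Ibsp and Sp7, had 58.8 CPM (51.9 to 66.4) and cluster 3, led by Barx1, Slit2 and Foxp2, had 40.7 CPM (34.5 to 47.7). The other 5 clusters, numbers 10, 0, 14, 2 and 12, held between 0.573 and 3.39 CPM, near the 0.558 CPM (0.0676 to 2.02) of the E13.5 erythroid cells.

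At E11.5, Foxf1 was highest in cluster 0, led by Cited1, Ebf2 and Nrk, with 171 CPM (161 to 182) from 965 UMIs in 935 cells. Foxf1, Foxd1 and Foxf2 were themselves among its 10 leading genes, at ranks 3, 7 and 10. Foxf1 was also among those of cluster 2, at rank 7. Cluster 16, a group of 128 cells led by Igfbp7, Inhba and Penk, had 146 CPM (123 to 172), which overlaps cluster 0. Cluster 2, led by Pax9 and Crym and holding the oral regulators Lhx6 and Lhx8 among its leading genes, had 121 CPM (112 to 131). A step down were the cartilage-led cluster 10 with 63.8 CPM (52.8 to 76.5), cluster 5 with 33.7 CPM (27.5 to 40.8) and cluster 4 with 17.3 CPM (13.4 to 22.1), none of which overlapped its neighbour in this order. The 5 lowest clusters, 1, 7, 8, 3 and 6, lay between 3.76 and 8.99 CPM, against 6.54 CPM (4.67 to 8.91) in the E11.5 erythroid cells, and the interval of each overlaps the erythroid one.

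Foxf2 led in the same E13.5 clusters, with 220.0 CPM (202 to 239.8) in cluster 11, 119.5 CPM (110.1 to 129) in cluster 4 and 115 CPM (103 to 127) in cluster 6. In cluster 11, 79.6% of cells held a Foxf2 UMI unthinned and 33.1% at 2000 UMIs. Clusters 5 and 3 followed with 25.8 CPM (21.4 to 31.0) and 22.6 CPM (18.1 to 28.0), while cluster 21 had 37.3 CPM from 5 UMIs. The 5 remaining mesenchyme clusters held between 0.481 and 5.82 CPM of Foxf2. At E11.5 Foxf2 was highest in cluster 16 with 66.1 CPM (51.0 to 84.2) and cluster 0 with 55.7 CPM (49.7 to 62.2), which overlap. Cluster 2, which held 121 CPM of Foxf1, held 18.9 CPM of Foxf2 (15.4 to 23.0), and the other 8 clusters between 1.67 and 10.8 CPM. Erythroid cells had 0.279 CPM of Foxf2 at E13.5 and 1.64 CPM at E11.5.

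Foxd1 was at one level in the 3 leading E13.5 clusters: 90.1 CPM (82.0 to 98.9) in cluster 4, 86.8 CPM (76.9 to 97.7) in cluster 6 and 84.4 CPM (73.1 to 96.9) in cluster 11, all overlapping. Cluster 3 had 40.5 CPM of Foxd1 (34.3 to 47.4). The bone-led cluster 5, with 58.8 CPM of Foxf1, had 6.91 CPM of Foxd1 (4.69 to 9.81). Cluster 2, led by Stmn2, Pax1 and Sp9, held 11.3 CPM of Foxd1 (8.31 to 15.04) from 47 UMIs, above the erythroid cells, but 0.962 CPM of Foxf1 from 4 UMIs, not above them. At E11.5 Foxd1 stood out in cluster 0 with 25.9 CPM (21.9 to 30.5) and cluster 16 with 17.3 CPM (10.1 to 27.7), which overlap. Cluster 2 followed with 4.78 CPM (3.12 to 7.0), and the other 8 E11.5 clusters held between 0.902 and 1.94 CPM from 3 to 8 UMIs each. Erythroid cells had 1.12 CPM of Foxd1 at E13.5 and 0.164 CPM at E11.5.

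Foxd2 led in E13.5 clusters 6 and 11, with 25.5 CPM (20.2 to 31.7) and 25.4 CPM (19.4 to 32.7). Cluster 4 had 15.2 CPM (11.97 to 19.01) and cluster 3 had 8.79 CPM (6.05 to 12.3), and each of the other 7 clusters held at most 4 UMIs of Foxd2. Unlike Foxd1, which was level over clusters 4, 6 and 11, Foxd2 was lower in cluster 4 than in either of the other two, with intervals that do not overlap. At E11.5 cluster 0 held 72 of the 98 mesenchyme UMIs, or 12.8 CPM (9.99 to 16.1). The next cluster, number 16, had 4.07 CPM from 4 UMIs (1.11 to 10.4), which overlaps cluster 0, and clusters 5 and 7 held 0 UMIs.

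**Figure D2:**
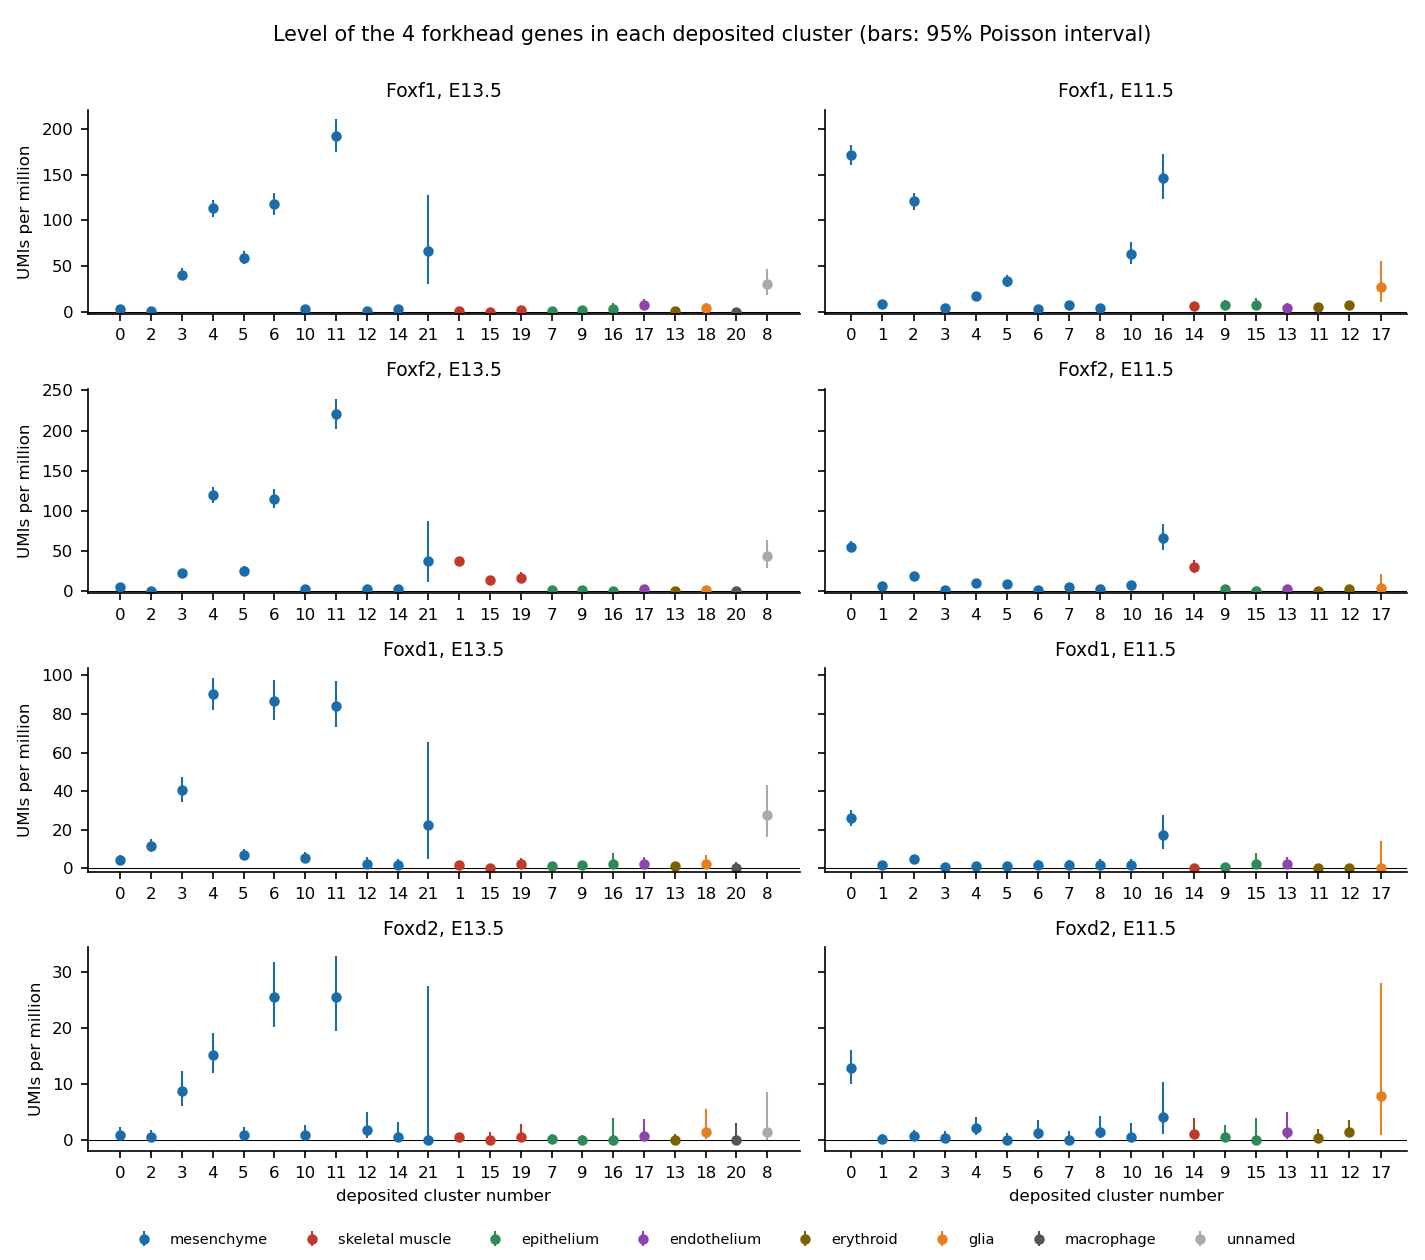
Level of each gene (CPM, linear axes shared between the stages) in every deposited cluster, E13.5 on the left and E11.5 on the right, with points coloured by class and bars for the 95% Poisson interval. The high points are mesenchyme clusters 11, 6 and 4 at E13.5 and 0, 16 and 2 at E11.5, while the red skeletal muscle points rise above the floor in the Foxf2 panels.

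A few clusters therefore held most of the UMIs. Clusters 11, 4 and 6, which were 28.4% of the E13.5 mesenchyme cells, held 75.2% of its Foxf1, 85.4% of its Foxf2, 77.0% of its Foxd1 and 81.3% of its Foxd2 UMIs. Clusters 0, 16 and 2, which were 29.4% of the E11.5 mesenchyme cells, held 81.8% of the Foxf1, 75.9% of the Foxf2 and 84.4% of the Foxd1 UMIs. For Foxd2 the 3 leading E11.5 clusters were 0, 16 and 4, with 85.7% of the UMIs in 28.7% of the cells. The leading clusters were chosen by these levels, so the shares are a description.

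The balance between the genes also differed. Foxf2 made up 48.4% of the Foxf1 and Foxf2 UMIs of the E13.5 mesenchyme (46.7 to 50.02%), against 22.7% at E11.5 (21.2 to 24.3%). These are shares of UMIs at transcript ends with no correction for how well each gene is captured, so they compare clusters and stages, not the amounts of the 2 transcripts. At E13.5 the Foxf2 share was 53.4% (50.2 to 56.6%) in cluster 11, 51.4% (48.5 to 54.3%) in cluster 4 and 49.4% (45.7 to 53.1%) in cluster 6. It was lower in cluster 3, at 35.7% (29.6 to 42.2%), and in the bone-led cluster 5, at 30.5% (25.9 to 35.4%). At E11.5 it was 31.1% (24.9 to 37.9%) in cluster 16, 24.6% (22.2 to 27.0%) in cluster 0, 13.5% (11.2 to 16.2%) in cluster 2 and 10.7% (5.97 to 17.3%) in the cartilage-led cluster 10. Clusters 1 and 4 had larger E11.5 shares, 43.4% and 38.3%, from 83 and 107 UMIs. So did clusters 7 and 8, with 43.75% and 41.2% from 32 and 17 UMIs. The Foxf1 intervals of clusters 1, 7 and 8 overlap that of erythroid cells.

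Foxd1 and Foxd2 together made up 29.0% of the UMIs of all 4 genes in the E13.5 mesenchyme (27.8 to 30.3%), against 10.3% at E11.5 (9.29 to 11.5%). Cluster 3 had the largest such share among the E13.5 clusters with at least 50 Foxf UMIs, at 43.7% (38.9 to 48.6%), and cluster 5 the smallest among the mesenchyme ones, at 8.43% (5.94 to 11.5%). That limit leaves out clusters poor in Foxf. Among those, cluster 2 had a larger share, 89.1% (77.8 to 95.9%), from 49 Foxd and 6 Foxf UMIs. Clusters 12 and 10 had 58.3% (27.7 to 84.8%) and 48.8% (32.9 to 64.9%), which overlap cluster 3. At E11.5 the share was 14.6% (12.8 to 16.5%) in cluster 0, 9.13% (5.74 to 13.6%) in cluster 16 and 3.79% (2.57 to 5.37%) in cluster 2. Clusters 6, 8 and 3, poor in Foxf, had larger shares, 35.0%, 29.2% and 17.1%, from 7, 7 and 6 Foxd UMIs. Their intervals overlap that of cluster 0.

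**Figure D3:**
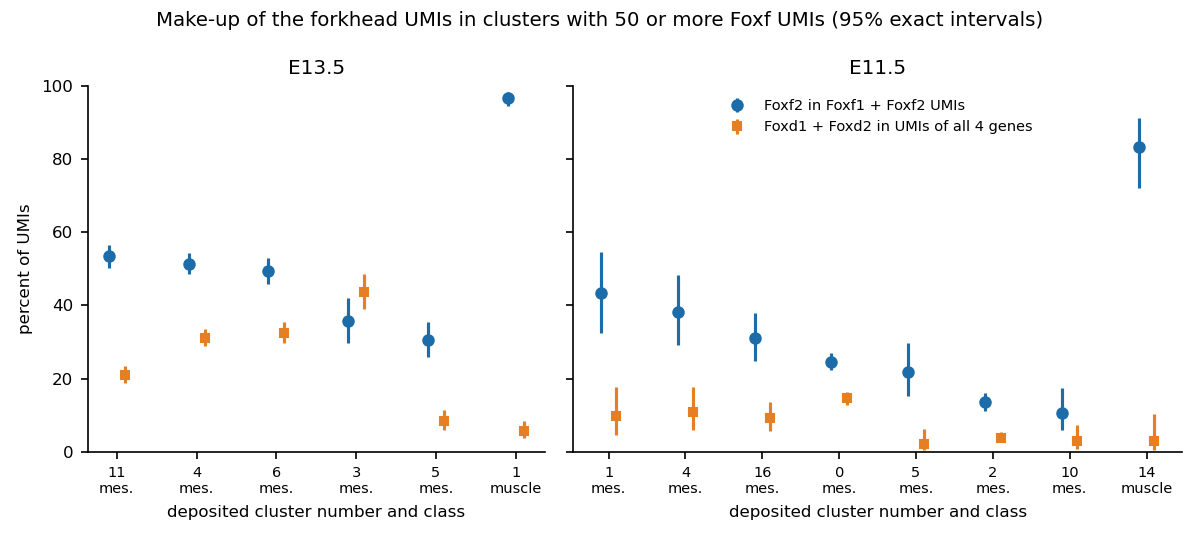
Percent of the Foxf1 and Foxf2 UMIs that are Foxf2 (circles) and percent of the UMIs of all 4 genes that are Foxd1 or Foxd2 (squares), in clusters with at least 50 Foxf UMIs, E13.5 on the left and E11.5 on the right, with 95% exact intervals. The muscle clusters stand at 96.7% Foxf2 (E13.5) and 83.3% (E11.5), above every mesenchyme cluster shown.

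Outside the mesenchyme, Foxf2 was found in skeletal muscle at a level that did not differ beyond its interval between the stages. Muscle held 453 Foxf2 UMIs or 30.9 CPM (28.1 to 33.9) at E13.5, against 55 UMIs or 30.1 CPM (22.7 to 39.2) at E11.5, a ratio of 1.03 (0.774 to 1.38). Erythroid cells held 0.279 and 1.64 CPM of it. Thinned to 2000 UMIs, 7.09% of the E13.5 muscle cells (5.35 to 9.17%) and 7.95% of the E11.5 ones (4.17 to 13.5%) were positive. The other 3 genes were low in muscle, with 1.30 CPM of Foxf1, 1.64 CPM of Foxd1 and 0.409 CPM of Foxd2 at E13.5. At E11.5 muscle held 6.02 CPM of Foxf1, 0 Foxd1 UMIs in 151 cells, which allows up to 1.64 CPM by the limit of 3 counts, and 2 Foxd2 UMIs.

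Among the E13.5 muscle clusters, Foxf2 was at 37.9 CPM (34.2 to 41.9) in cluster 1, which was led by the progenitor genes Msc, Tcf21 and Myf5. It was at 13.6 CPM (9.502 to 18.97) in cluster 15, led by Myog, a factor of differentiating muscle, and at 17.01 CPM (11.7 to 23.9) in cluster 19, led by sarcomere genes such as Acta1 and Myh3. Clusters 15 and 19 overlap, and both lie below cluster 1. Myod1, the muscle determination factor, was found in 84.5% of the 207 Foxf2-positive cells of cluster 1 and in 86.1% of its Foxf2-negative cells. Pax7, a marker of muscle progenitors, was found in 30.9% and 30.8% of them. The Foxf2 share of Foxf UMIs was 96.0% in E13.5 muscle (93.8 to 97.6%) and 83.3% in E11.5 muscle (72.1 to 91.4%), beside 48.4% and 22.7% in the mesenchyme of the same libraries. Mesenchyme markers summed to 190 CPM in E13.5 muscle and 345 CPM in E11.5 muscle, against 2416 and 2101 CPM in mesenchyme. Of the 8 markers in that sum (Prrx1, Prrx2, Twist1, Pdgfra, Col1a1, Col3a1, Dlx5 and Msx1), 0 were without a UMI in muscle at either stage. The part of mesenchyme RNA in the muscle values was not tested. Msc, a factor of head muscle progenitors, was found in 86.0% of the Foxf2-positive and 77.8% of the Foxf2-negative cells of cluster 1, and Myf5 in 46.4% and 40.4%. Tcf21 went the other way, in 33.3% and 38.4%, as did Myog, in 48.8% and 54.3%. All these shares of cluster 1 cells are unthinned.

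In the other classes the genes had few UMIs. Foxf1 was called lower at E13.5 in 3 classes: 1.60 against 7.75 CPM in epithelium, 1.30 against 6.02 CPM in muscle and 0.558 against 6.54 CPM in erythroid cells. The E11.5 values of epithelium and muscle overlap the erythroid one (4.67 to 8.91 CPM), and 90.0% of measured genes were called lower in erythroid cells, 14.2% in epithelium and 13.7% in muscle. The part of free RNA in these Foxf1 differences was not tested. Endothelium held 12 Foxf1 UMIs in 5 cells, 8.03 CPM (4.15 to 14.03), at E13.5, against 7 UMIs, 4.83 CPM (1.94 to 9.96), at E11.5, too few for the size rule, which needs 20 UMIs over both stages. In CPM the E13.5 endothelial interval lies above that of the E13.5 erythroid cells (0.0676 to 2.02 CPM). As shares of unthinned cells, 3.65% (1.20 to 8.31%) and 0.966% (0.117 to 3.45%), they overlap. Glia-like cells at E11.5, 26 in number, held 7 Foxf1 UMIs in 3 cells, 27.2 CPM (10.9 to 56.1), in CPM above the interval of the E11.5 erythroid cells. As shares of unthinned cells, 11.5% (2.45 to 30.2%) and 6.80% (4.67 to 9.51%), they overlap. The CPM intervals take UMIs of the same cell as independent. An unnamed E13.5 cluster of 304 cells with a median of 935.5 UMIs held 30.5 CPM of Foxf1, 44.2 CPM of Foxf2 and 27.5 CPM of Foxd1, together with 107253 CPM of erythroid markers.

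Whether the genes were found in the same cells was read from mesenchyme cells thinned to 2000 UMIs, for all 6 pairs. No doublet caller was run, whether doublets were removed before deposit is not given in the sources used here, and their part in these counts was not tested. At E13.5, 76 of 3826 cells, 1.99% (1.57 to 2.48%), held both Foxf1 and Foxf2. The product of the single shares was 0.708% over all cells and 1.65% when formed within clusters and averaged, and the second lies inside the interval. At E11.5, 61 of 5899 cells, 1.03% (0.792 to 1.33%), held both, above the product over all cells, 0.265%, and also above that within clusters, 0.564%. Foxf2 and Foxd1 were found together in 1.15% of E13.5 cells (0.837 to 1.54%, within-cluster product 1.04%) and in 0.237% of E11.5 cells (0.130 to 0.398%, within-cluster product 0.0789%).

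Over the 6 pairs the within-cluster product lay inside the interval for 6 at E13.5 and for 4 at E11.5, where Foxf1 with Foxf2 and Foxf2 with Foxd1 were above it. Depth changes this count: in unthinned cells 2 pairs were above it at E13.5 and 5 at E11.5, and at 4000 UMIs 0 and 4. The value for cells with both Foxf1 and Foxf2 was 14.8% at E13.5 and 4.90% at E11.5 in unthinned cells. Of the Foxf1-positive cells at 2000 UMIs, 23.0% held Foxf2 at E13.5 and 11.98% at E11.5. Of the Foxf1-negative cells, 6.81% and 2.23% did.

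Cells were also grouped by subfamily at 2000 UMIs. A Foxf gene without a Foxd gene was found in 12.8% of E13.5 cells (11.8 to 13.9%) and in 10.0% of E11.5 cells (9.25 to 10.8%). A Foxd gene without a Foxf gene was found in 4.76% (4.10 to 5.48%) at E13.5 and in 0.661% (0.471 to 0.903%) at E11.5, and both subfamilies in 2.04% and 0.661%. No thinned cell held all 4 genes, and 54 E13.5 cells (1.38%) and 7 E11.5 cells (0.119%) did unthinned.

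**Figure D4:**
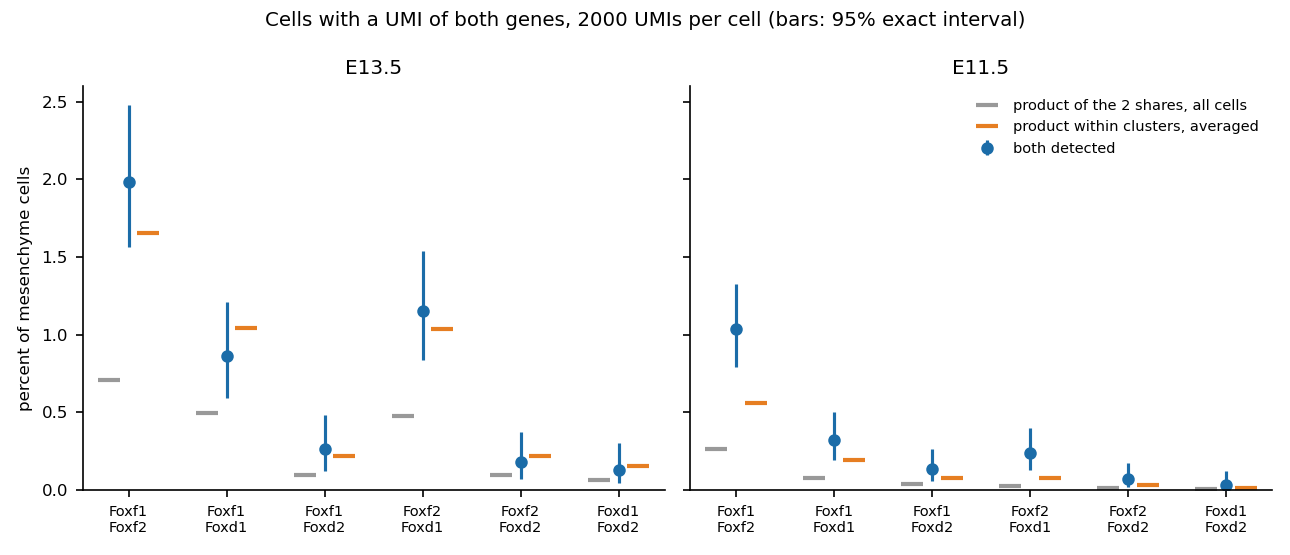
Percent of mesenchyme cells with a UMI of both genes of each pair, at 2000 UMIs per cell (circles with 95% exact intervals), beside the product of the single shares over all cells (grey) and within clusters (orange), E13.5 on the left and E11.5 on the right. Foxf1 with Foxf2 is the most frequent pair at both stages, at 1.99% and 1.03%.

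Hedgehog response was read from the sum of Ptch1, the hedgehog receptor, Gli1, an effector, and Hhip, a ligand-binding inhibitor, which are all induced by the pathway. At E13.5 the sum was 104 CPM in cluster 21 and 100.5 CPM in cluster 11, which had the most Foxf1 and Foxf2. Cluster 21 was shallow, with 134117 UMIs in all and 9 of Foxf1, so that 3 UMIs there make 22.4 CPM. Clusters 4, 6 and 5 had 52.8, 40.6 and 40.1 CPM. Clusters 2 and 10 had 58.0 and 50.2 CPM of the response genes and 0.962 and 3.39 CPM of Foxf1. At E11.5 the sum was highest in cluster 16, at 96.6 CPM, followed by cluster 0 at 49.8 CPM and cluster 2 at 33.4 CPM, the 3 clusters with the most Foxf1, and the others lay between 11.7 and 26.2 CPM. Over the 11 mesenchyme clusters of each library, the correlation of log2(CPM + 1) between Foxf1 and this sum was r = 0.57 at E13.5 and 0.84 at E11.5, with rank correlations of 0.55 and 0.90. For Foxf2 r was 0.50 and 0.88 (rank 0.43 and 0.85), for Foxd1 0.61 and 0.83 (rank 0.61 and 0.44), and for Foxd2 0.19 and 0.62 (rank -0.05 and 0.44). The clusters share a library and were made from these genes, so the values are descriptions.

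**Figure D5:**
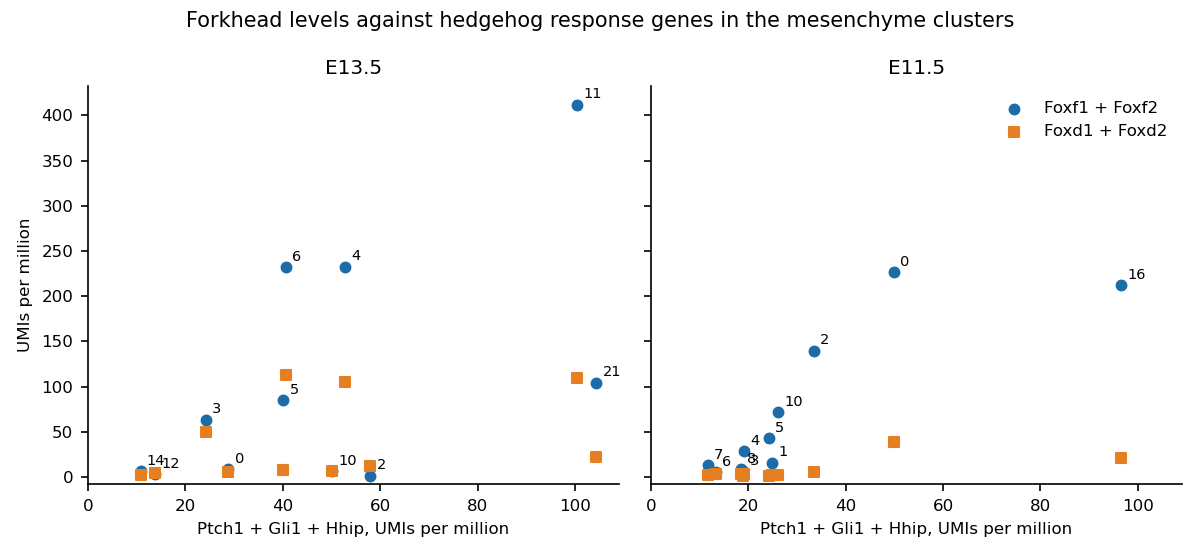
Summed Foxf (blue circles, with cluster numbers) and Foxd (orange squares) levels against the sum of Ptch1, Gli1 and Hhip, all in CPM, for the 11 mesenchyme clusters at E13.5 (left) and at E11.5 (right). At 58.0 and 50.2 CPM of the response genes, the Foxf points of E13.5 clusters 2 and 10 rest on 6 and 21 UMIs.

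Of the 16 listed genes of the hedgehog pathway, 14 were measured in the mesenchyme, of which 6 were higher at E13.5, 0 lower and 8 neither, where 27.0% of all measured genes were higher and 12.2% lower. Their median log2 ratio was 0.43, beside 0.14 over all genes. Hhip was at 5.16 against 0.590 CPM, a ratio of 8.75 (5.60 to 14.3), and the ligand gene Ihh at 0.554 against 0.107 CPM, 5.17 (1.72 to 20.9), from 19 and 4 UMIs. Sufu, an inhibitor of Gli factors, was at 11.1 against 12.8 CPM, 0.867 (0.756 to 0.994), and Gli1 at 11.5 against 12.04 CPM, 0.957 (0.834 to 1.10). Among 10 genes of BMP signalling and its response, 2 were higher and 2 lower, beside the same 27.0% and 12.2% of all genes. With size factors 2 were higher and 3 lower, beside 3237 and 2421 of the 14139 measured genes. The list's median was 0.13, or -0.01 with size factors. The ligand genes Bmp2, at 2.55 (2.18 to 2.99), and Bmp7, at 2.06 (1.79 to 2.37), were higher, and the response factors Msx1, 2.65-fold (2.59 to 2.72), and Msx2, 4.52-fold (4.12 to 4.97), lower at E13.5.

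Of 12 regulators of oral mesenchyme, 5 were higher and 4 lower, beside 27.0% and 12.2% of all genes. With size factors 5 were higher and 5 lower, beside 3237 and 2421 of the 14139 measured genes. Here too the median was 0.13, or -0.01 with size factors. Osr1, a zinc finger factor of early mesenchyme, was at 532 against 133 CPM, a ratio of 4.01 (3.88 to 4.13), and the ligand gene Fgf18 at 8.43 against 2.44 CPM, 3.45 (2.72 to 4.42). Pax9, needed for teeth and palate, was 2.45-fold lower (2.21 to 2.72) and Tbx2, a T-box repressor, 3.95-fold lower (3.56 to 4.38) at E13.5. The 30 other forkhead symbols gave 19 measured genes, 4 higher and 1 lower, and a median of 0.24. With size factors 4 were higher and 3 lower, beside the same 3237 and 2421 genes. In CPM, 4 and 1 of 19 are smaller shares than the 27.0% and 12.2% called over all genes. Foxq1, which controls hair structure in the mouse, was at 9.91 against 0.670 CPM, a ratio of 14.8 (9.85 to 23.2). Foxa2, a factor of endoderm and floor plate, had 32 UMIs at E13.5 and 1 at E11.5, a ratio of 34.8 (5.81 to 1417). Foxm1, a factor of dividing cells, was 1.55-fold lower (1.34 to 1.79) at E13.5. Foxp1 was at 39.0 against 55.7 CPM, 1.43-fold lower (1.33 to 1.53), short of the size rule.

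Neighbouring genes, chosen after their values were seen, share some of the clusters. Fendrr, a long non-coding RNA whose start lies 1276 bases from that of Foxf1 on the opposite strand, was at 16.5 CPM in E13.5 cluster 11, 9.79 CPM in cluster 4 and 8.18 CPM in cluster 6. At E11.5 it was at 5.68 CPM in cluster 0 and 4.41 CPM in cluster 2. Foxc2, 31.8 kb from Foxf1 and known from limb, vessel and facial mesenchyme, was at 44.5 CPM in E13.5 cluster 11 but at 0.943 CPM in cluster 6, and at E11.5 at 40.4 CPM in the cartilage-led cluster 10 and 27.7 CPM in cluster 0. Foxq1, 69.7 kb from Foxf2, was at 81.4 CPM in E13.5 cluster 11 and at 18.99 and 10.1 CPM in clusters 4 and 6. At E11.5 no mesenchyme cluster held more than 2.66 CPM of it. Foxc1, 181 kb from Foxf2, was at 11.8 CPM in the bone-led E13.5 cluster 5. In endothelium it was at 16.1 CPM in E13.5 cluster 17 and 13.1 CPM in E11.5 cluster 13. No intervals are given for these levels of neighbouring genes, so their order is not settled.

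The genes whose levels over the mesenchyme clusters were most like those of the 4 genes were ranked by the lower of the 2 stages' Pearson r, over 11 clusters each and among 8064 genes with at least 200 mesenchyme UMIs in each library. For Foxf1 the first was Foxf2, with r = 0.97 at E13.5 and 0.91 at E11.5, and Elk3 (0.85 and 0.84), Lsr and Iqgap2 were also among the first 5. For Foxf2 they were Foxf1, Foxd1 (0.85 and 0.87), Elk3, Iqgap2 and Uri1. For Foxd1 they were Foxf2, Uri1 (0.92 and 0.83), Elk3, Purb and Bcl2. For Foxd2 they were Foxd1 (0.82 and 0.85), Dock6, Rbpms, Ptp4a2 and Pnn. Foxd2 itself had under 200 UMIs at E11.5 and was not among the ranked genes.

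By the authors' cell cycle calls, Foxf1, Foxf2 and Foxd1 were lower in G1 than in S or G2M in the E13.5 mesenchyme, with intervals that do not overlap. Foxf1 was at 39.9 CPM in G1, 68.1 in S and 67.4 in G2M at E13.5, and at 48.7, 57.1 and 63.4 CPM at E11.5. Foxf2 was at 36.6, 61.8 and 66.7 CPM at E13.5 and at 15, 18.5 and 17.1 CPM at E11.5. Foxd1 was at 22.4, 47.2 and 47.4 CPM at E13.5 and at 4.60, 6.69 and 6.31 CPM at E11.5. For Foxd2, at 5.98, 10.1 and 8.97 CPM at E13.5 and at 3.28, 2.50 and 2.36 CPM at E11.5, G1 and G2M overlap at both stages. At E13.5 its G1 interval (4.87 to 7.27 CPM) lay below that of S (8.10 to 12.4 CPM). These levels pool all mesenchyme clusters, whose G1 shares differed. Cluster 4, which held 37.5% of the E13.5 mesenchyme Foxd1 UMIs, contained 0% G1 cells. So did E13.5 cluster 10, with 3.39 CPM of Foxf1. E13.5 clusters 0, 12 and 14, also poor in Foxf1, were 85.9%, 86.0% and 84.7% G1. Levels by phase within clusters are not given, so phase and cluster identity cannot be told apart.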

How the data were processed

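Per library, the authors deposited UMI counts by gene and cell, with cell metadata beside them. Per the submitters' processing notes, the tools included Cell Ranger 2.0.0 and Seurat 2.3.4, and mm10 is listed as build, without their roles. The deposited mitochondrial share is a fraction, printed as a percent. Cell cycle enters through the authors' phase calls, not through the deposited score values. The genes and lists were chosen with earlier results of these data known. Clusters took the authors' lineage names, except that E11.5 cluster 17 (glia), E11.5 cluster 14 (muscle) and E13.5 cluster 20 (macrophages) were classed by their leading genes, E13.5 cluster 8 stayed unnamed, and E13.5 cluster 5, named as bone progenitors, was counted as mesenchyme. Counts were summed over cells and scaled to CPM. Ratios have conditional binomial, levels Poisson and shares Clopper-Pearson 95% intervals, all exact. Thinning drew 2000 UMIs per cell without replacement. No doublet caller was run. A count of 0 is given the limit that 3 counts set. Genes in 1 table only (1831 at E13.5, 292 at E11.5) entered no ratio. Named genes were the 4, the 2 highest and 2 lowest ratios of each list, and the 5 most alike. The scripts, tested on simulated data, ran under Python 3.11.15 with pandas 2.3.3, scipy 1.17.1 and numpy 2.4.6. The upstream sequence of Foxf1 was not used here. Of the named genes, 1 that the naming rule selected is not reported here.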

Additional observations from a re-analysis of the deposited data

How the results depend on the processing

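No paired analysis was possible because each stage is 1 library. The Foxf1 log2 ratio, -0.10, was -0.24 with median-of-ratios size factors, -0.29 in cells called G1 and 0.14 without the clusters led by markers of another tissue, and ranged with 1 cluster left out from -0.40 (without E13.5 cluster 11) to 0.52 (without E11.5 cluster 0). That of Foxf2, 1.57, was 1.43 with size factors, 1.29 in G1 and 1.90 without those clusters. It ranged from 1.16 (without E13.5 cluster 11) to 2.32 (without E11.5 cluster 0). That of Foxd1, 2.54, was 2.29 in G1 and 2.81 without those clusters, and ranged from 2.09 (without E13.5 cluster 4) to 3.83 (without E11.5 cluster 0). That of Foxd2, 1.57, was 0.86 in G1 and ranged from 1.19 (without E13.5 cluster 6) to 3.24 (without E11.5 cluster 0). The cause was not tested. In cells with no UMI of Xist, the RNA of X inactivation, the 4 ratios were -0.08, 1.63, 2.53 and 1.55. The difference in positive cells, E13.5 minus E11.5 in percentage points, was for Foxf1 0.00 at 2000 UMIs, -0.50 at 1000, 1.61 at 4000 and 7.63 unthinned. In the same order it was 5.14, 3.43, 8.45 and 14.6 for Foxf2 and 4.86, 2.71, 8.52 and 15.7 for Foxd1. Foxd2 had 0.709, 0.527, 1.84 and 4.53. The cause of these shifts with depth was not tested. With size factors the median log2 ratio turned to -0.01 for the BMP and -0.01 for the oral list, and 3 other forkhead genes were lower. All 16 alternatives for levels in the highest clusters and 14 for other classes stayed within their intervals. With the mean of each cell's own CPM, however, the highest E13.5 cluster became 11, from 4 for Foxd1 and from 6 for Foxd2. Of the alternatives for the mesenchyme, 27 moved and 43 did not. Of those for the lists, 3 moved and 9 did not, and all 24 for pairs, which changed depth, moved. Depth limits Foxd2 most, with 98 UMIs in the E11.5 mesenchyme.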
